A study of Homo sapiens with 8 samples.

Results

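The genes described here encode proteins that bind, cut, fold or chemically modify tubulin and microtubules. They were taken by gene symbol from a list of 37, and all 37 were found among the 60554 gene rows of the count files. All 37 also passed the filter on low counts, which kept 20238 genes for testing. They fell into 6 groups by role, with 13 stabilising microtubule-associated proteins (MAPs), 2 stathmins, 9 plus-end proteins, 3 severing enzymes, 5 tubulin folding cofactors and 5 tubulin-modifying enzymes.

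Microtubules are hollow polymers of α- and β-tubulin that grow and shrink mostly at their plus ends. Classical MAPs bind along the polymer and make it last longer, stathmins hold free tubulin dimers and favour shrinkage, plus-end proteins track and steer the growing tip, and severing enzymes cut the polymer into pieces. Cofactors fold the tubulin dimer before it can be used, and enzymes add or remove tyrosine, glutamate or acetyl groups on tubulin. Docetaxel binds β-tubulin in the polymer and keeps it from shrinking, so the products of these genes act on the structure that the drug targets.

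Total RNA of 2 human prostate cancer lines was sequenced in bulk after library preparation with a SMART-seq mRNA Library kit. The lines were DU145, first grown from a brain metastasis, and PC3, first grown from a bone metastasis. Each line was studied as a docetaxel-sensitive and a docetaxel-resistant strain, with 2 libraries in each of the 4 groups. Sensitive cells grew in RPMI medium with 0.1% DMSO, and resistant cells grew in the same medium with 10 nM docetaxel dissolved in DMSO. Library totals ran from 31685148 to 43045127 counts. Whether docetaxel was withdrawn before these RNA samples were taken, whether a resistant strain is 1 clone, and whether replicate libraries came from separate cultures were points not given in the sources used here, so the p-values below measure the spread between these libraries alone, which may be technical.

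The lines were checked against markers of cell types. Each of 5 epithelial markers reached 1 CPM (counts scaled to a library total of 1000000) in some library, and their summed level was 2553 to 4164 CPM in sensitive DU145, 254 to 398.2 CPM in resistant DU145, 837.7 to 913.6 CPM in sensitive PC3 and 1223 to 1363 CPM in resistant PC3. KRT8 and KRT18 made up most of the epithelial sum in sensitive DU145. KRT8 was at 2150 and 1271 CPM in sensitive and 27.2 and 30.8 CPM in resistant DU145. KRT18 was at 1897 and 1157 CPM in sensitive and 319 and 161 CPM in resistant DU145. KRT19 and CLDN4 were lower there too, but EPCAM was at 21.6 and 20.2 beside 18.6 and 17.5 CPM. Of the markers of the prostate lumen, KLK3 and KLK2 were at 0 in all 8 libraries. Of 8 neuronal markers, 6 reached 1 CPM in some library. Their summed level was 40.63 to 44.5 CPM in sensitive and 28.46 to 34.63 CPM in resistant DU145, and 303.6 to 360.5 CPM in sensitive and 119.7 to 181 CPM in resistant PC3. NEFL alone made up 351 and 291 CPM of the sum in the sensitive PC3 libraries and 103 and 161 CPM in the resistant ones. Other neuronal markers went the other way, with SNAP25 at 0 in both sensitive and at 1.79 and 1.66 CPM in resistant PC3, and at 4.09 and 3.74 CPM in sensitive and 7.04 and 7.58 CPM in resistant DU145. Summed endothelial markers stood at 6.979 to 7.701 CPM in sensitive and 21.33 to 50.62 CPM in resistant PC3, and at most 1.392 CPM in DU145, while fibroblast and leukocyte markers summed to at most 35.44 and 8.92 CPM in any library. Many of the stabilising MAPs are best known from neurons, and the part of these marker differences in the results was not tested. A lower value in a bulk library can mean fewer cells that express a gene or less RNA per cell, and these cannot be told apart.

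In DU145, 8 of the 37 genes were higher and 5 were lower in resistant than in sensitive cells, and 24 did not pass the test, by edgeR's quasi-likelihood test with Benjamini-Hochberg adjustment over all tested genes and a threshold of 0.05. These 13 make 35.1% of the genes, beside 27.8% of all tested genes (12.4% higher and 15.4% lower). In PC3, 13 genes were higher, 9 were lower and 15 did not pass, which makes 59.5% beside 35.6% of all tested genes (18.6% higher and 17.0% lower). Changes of 2-fold or more that passed were seen in 6 genes in DU145 and 9 in PC3, beside 14.9% and 19.3% of all tested genes. The 9 include DCLK1. The microtubule genes were more abundant than most, with a median level of 51.1 CPM over the 8 libraries beside 10.8 CPM for all tested genes. In a separate fit of the 14585 genes with at least 1 CPM in 4 or more libraries, 35.1% were called in DU145 and 40.7% in PC3. DCLK1 did not reach that filter. Of the other 36 genes, 13 were called in DU145 and 20 in PC3 in that fit, so the share in DU145 was close to that background. DCLK1 is counted among the PC3 genes although it passed the filter on low counts through resistant PC3 alone; without it, 12 were higher in PC3, 10 had a higher change in PC3 than in DU145 and 10 were lower in sensitive PC3 than in sensitive DU145. The median log2 fold change of the 37 genes was 0.12 in DU145 and -0.01 in PC3, beside 0.00 and 0.01 for all tested genes.

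**Figure D1:**
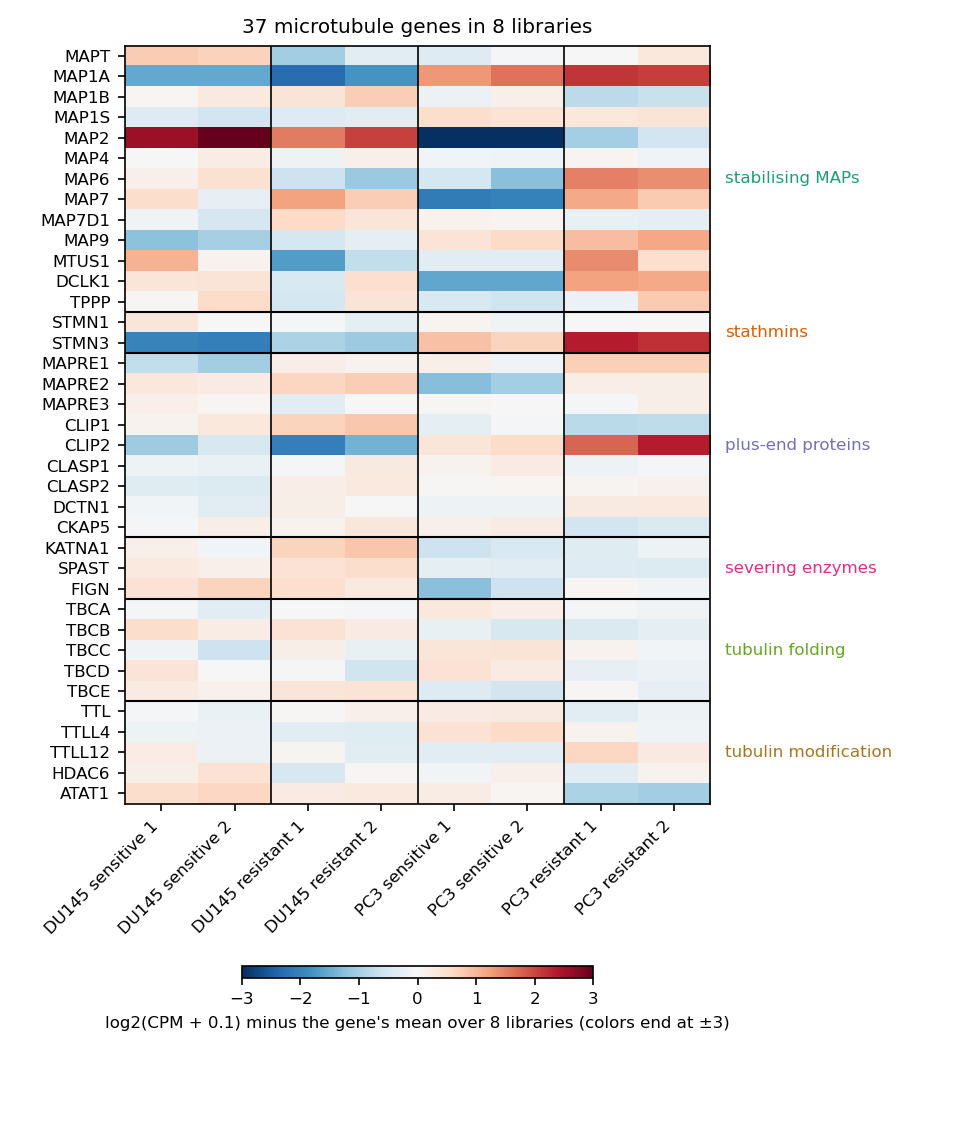
Level of each of the 37 genes in each of the 8 libraries, as log2 CPM relative to the mean of that gene over all libraries (red above, blue below, colors ending at 3 log2 units). MAP2 is high in DU145 and lowest in sensitive PC3, and MAP1A, STMN3 and CLIP2 are highest in resistant PC3.

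Genes that changed in both lines did so in the same or in opposite directions. A total of 4 genes, MAP9, STMN3, MAPRE1 and MAPRE2, were higher in resistant cells of both lines, beside 2.62% of all tested genes. A further 4, MAP2, MAP6, MTUS1 and CLIP2, were lower in resistant DU145 and higher in resistant PC3, beside 4.08% of all tested genes. CLIP1 alone was higher in resistant DU145 and lower in resistant PC3, beside 2.88%, and none was lower in both, beside 2.78%. Most of these joint calls were lost on leaving out 1 library. With each library left out in turn, the genes higher in both lines numbered 1 to 4, fewest without sensitive or resistant PC3 library 2, and those lower in DU145 and higher in PC3 numbered 1 to 4, fewest without sensitive DU145 library 2. STMN3 alone kept a call in both lines in all 8 of those fits. No opposed gene did, since MAP2, MAP6, CLIP2 and CLIP1 lost the DU145 call and MTUS1 the PC3 call in at least 1 fit. When the PC3 change minus the DU145 change was tested in the same model, 20 of the 37 genes passed, 11 with a higher value in PC3 and 9 with a lower one. That makes 54.1% beside 34.3% of all tested genes (18.5% and 15.9%). In the separate fit of the 14585 more abundant genes, 19 of 36 passed, beside 41.6% of all genes in that fit. Of the 20 that passed in the main fit, 11 differed by 2-fold or more, DCLK1 among them, beside 25.4% of all tested genes. The difference between the lines held for MAP2, MAP6, MTUS1, CLIP2 and CLIP1 without any one library. That contrast uses the same libraries as the comparison within each line.

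**Figure D2:**
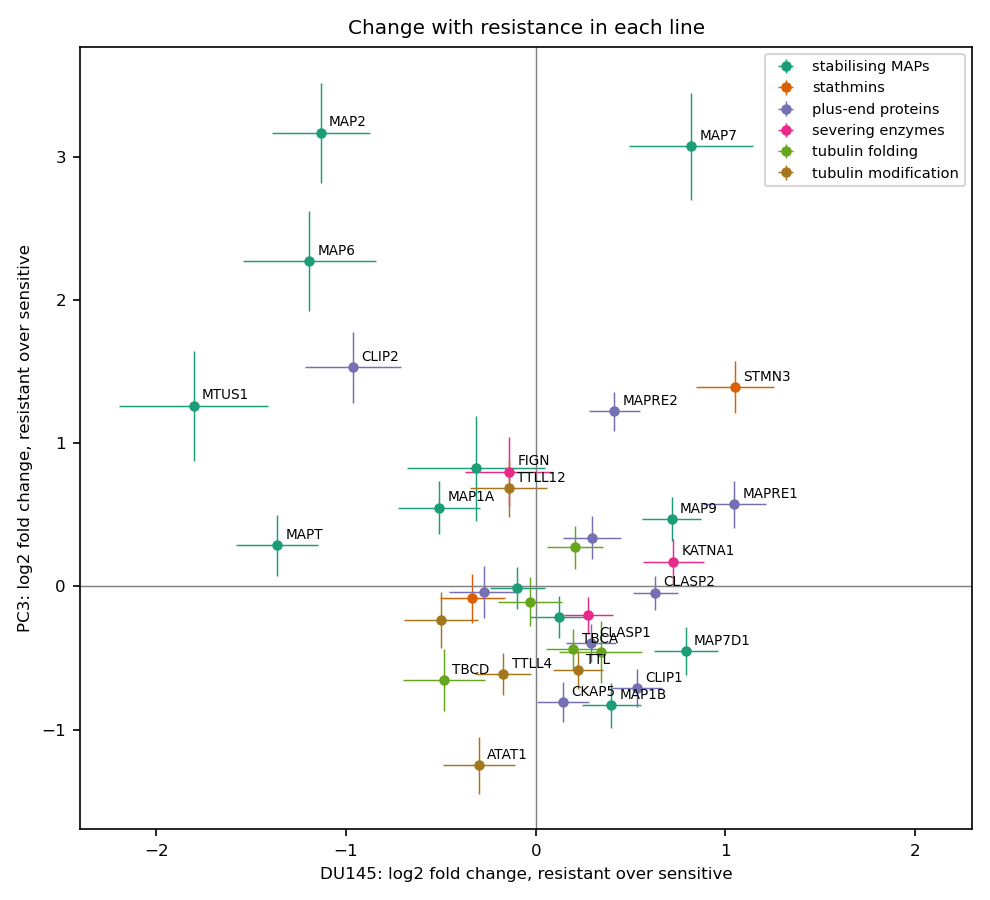
Log2 fold change of resistant over sensitive cells in DU145 (x axis) and in PC3 (y axis) for 36 of the 37 genes, colored by role, with bars of 1 standard error and with names for the genes that passed the test in at least 1 line. DCLK1 is left out because no count was seen in sensitive PC3. MAP2, MAP6, MTUS1 and CLIP2 lie at the upper left, and STMN3, MAPRE1, MAPRE2 and MAP9 at the upper right.

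Of the 13 stabilising MAPs, 2 were higher in resistant DU145, 4 were lower and 7 did not pass, with a median log2 fold change of -0.32, beside 12.4% higher and 15.4% lower among all tested genes. The calls of MAP9, MAPT and MTUS1 held without any one library, and those of MAP7D1, MAP2 and MAP6 did not. In PC3, 7 were higher, DCLK1 among them, 1 was lower and 5 did not pass, with a median of 0.55, beside 18.6% and 17.0%. DCLK1 passed the filter on low counts through resistant PC3 alone, so it had to differ there. Here the calls of MAP2, MAP6, MAP7 and MAP1B held, and those of MAP1A, MAP9 and MTUS1 did not, while DCLK1 is described apart. The PC3 change was above the DU145 change for 7 of the stabilising MAPs, DCLK1 again included, and below it for 2 by the test of the difference. Over all tested genes these shares were 18.5% and 15.9%.

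MAP2, a MAP best known from dendrites of neurons, went opposite ways in the 2 lines (chr2:209424047-209734147, plus strand, GRCh38). In DU145 it stood at 73.9 and 121 CPM in the sensitive libraries and 36.7 and 51.9 CPM in the resistant libraries. In PC3 it stood at 0.521 and 0.978 CPM in the sensitive libraries and 6.11 and 8.27 CPM in the resistant libraries. In neither line did the groups overlap. It fell in resistant DU145 (log2 fold change -1.13 ± 0.26, adjusted p = 0.00825) and rose 9.0-fold in resistant PC3 (log2 fold change 3.17 ± 0.35, adjusted p = 7.5e-05), and the changes differed by 4.30 ± 0.44 log2 units (adjusted p = 4.84e-05). The resistant PC3 libraries remained below all 4 DU145 libraries. The DU145 call was lost without sensitive library 2, the higher of that pair (-0.77, adjusted p = 0.0770). The counts in sensitive PC3 were 18 and 31, or 1.39% and 2.61% of the mean level of MAP2 over all libraries. Among the 2659 genes that averaged 100 CPM or more, the lowest such share in the same 2 libraries was 0.488% and 0.798%.

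MAP6, which makes microtubules resistant to cold, was low throughout but had the same opposed pattern. It was at 2.64 and 3.28 CPM in the sensitive libraries and 1.52 and 1.04 CPM in the resistant libraries of DU145 (log2 fold change -1.19 ± 0.35, adjusted p = 0.0272). In PC3 it was at 1.62 and 0.947 CPM in the sensitive libraries and 7.02 and 6.40 CPM in the resistant libraries (log2 fold change 2.27 ± 0.35, adjusted p = 0.000656). The resistant PC3 libraries were above all others, and the difference between the lines was 3.47 ± 0.49 (adjusted p = 0.000432). The fall in DU145 was not called without sensitive library 1 (-1.30, adjusted p = 0.0507), sensitive library 2 (-1.06, adjusted p = 0.120) or resistant library 2 (-0.87, adjusted p = 0.148).

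MTUS1 encodes proteins that bind microtubules and the angiotensin II type 2 receptor. It stood at 25.9 and 13.3 CPM in the sensitive libraries and 3.83 and 7.49 CPM in the resistant libraries of DU145 and fell (log2 fold change -1.80 ± 0.39, adjusted p = 0.00666). In PC3 it stood at 9.93 and 9.94 CPM in the sensitive libraries and 33.4 and 17.8 CPM in the resistant libraries (log2 fold change 1.26 ± 0.38, adjusted p = 0.0255). No groups overlapped, but sensitive DU145 library 1 and resistant PC3 library 1 were well above their partners. The fall in DU145 held without any one library but shrank without sensitive library 1 to -1.21 (adjusted p = 0.0492). The rise in PC3 was not called without sensitive library 1 (1.28, adjusted p = 0.0940), sensitive library 2 (1.24, adjusted p = 0.101) or resistant library 1 (0.75, adjusted p = 0.209). The changes in the 2 lines differed by 3.07 ± 0.55 (adjusted p = 0.00176). Exons of PDGFRL overlap 277 bases, 2.30%, of MTUS1 exons on the opposite strand, and PDGFRL had 275 and 323 counts in sensitive and 25 and 32 counts in resistant DU145; the strand setting of the counting was not given in the sources used here.

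MAPT, which encodes tau, changed in DU145 (chr17:45894527-46028334, plus strand). It was at 56.4 and 54.2 CPM in the sensitive libraries and 16.1 and 27.0 CPM in the resistant libraries, a 2.57-fold fall with no overlap (log2 fold change -1.36 ± 0.22, adjusted p = 0.00108). In PC3 it was at 25.7 and 32.2 CPM in the sensitive libraries and 33.9 and 41.8 CPM in the resistant libraries, which did not pass (log2 fold change 0.29 ± 0.21, adjusted p = 0.325). The change in PC3 was above that in DU145 by 1.65 ± 0.30 (adjusted p = 0.00201). Both of these calls held without any one library.

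MAP7, a MAP that recruits kinesin-1 to microtubules, rose in PC3 from under 1 CPM. It was at 0.753 and 0.789 CPM in the sensitive libraries and 7.85 and 6.12 CPM in the resistant libraries, an 8.43-fold rise (log2 fold change 3.07 ± 0.37, adjusted p = 0.000144). In DU145 it was at 5.15 and 2.96 CPM in the sensitive libraries and 8.27 and 5.93 CPM in the resistant libraries and did not pass (log2 fold change 0.82 ± 0.33, adjusted p = 0.0858). The groups did not overlap in either line, and the 4 libraries of resistant cells reached similar levels. The DU145 value did pass without sensitive library 1 (1.32, adjusted p = 0.0316) and without resistant library 2 (1.11, adjusted p = 0.0468). The PC3 change was above the DU145 change by 2.26 ± 0.49 (adjusted p = 0.00520).

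DCLK1, a kinase with doublecortin domains that bind microtubules, was the scarcest gene. No count was seen in either sensitive PC3 library, and resistant PC3 had 0.581 and 0.545 CPM. Set against a floor of 3 counts over the sensitive group, resistant PC3 was at least 12.4-fold higher. The 25 and 21 counts of resistant PC3 carried the gene past the filter on low counts, with 11 counts at most elsewhere, so its value there had to differ and no test is given. In DU145 it was at 0.278 and 0.288 CPM in the sensitive libraries and 0.117 and 0.317 CPM in the resistant libraries, with overlapping groups. All of these levels are below 1 CPM.

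MAP9, which acts on spindle microtubules, was among those that rose in both lines. It rose in DU145 from a mean of 14.4 ± 1.65 to 23.6 ± 2.90 CPM (SD, n = 2; log2 fold change 0.72 ± 0.16, adjusted p = 0.00662) and in PC3 from a mean of 43.9 ± 3.50 to 65.1 ± 7.41 CPM (log2 fold change 0.47 ± 0.15, adjusted p = 0.0338). The PC3 call was lost without sensitive library 1 (0.41, adjusted p = 0.220), sensitive library 2 (0.53, adjusted p = 0.113) or resistant library 2 (0.34, adjusted p = 0.216). MAP1A, a MAP of mature neurons, rose in PC3 from a mean of 25.1 ± 4.15 to 39.3 ± 1.22 CPM (log2 fold change 0.55 ± 0.19, adjusted p = 0.0406), a call lost on leaving out any one of the 4 PC3 libraries (adjusted p from 0.0775 to 0.296). Its relative MAP1B, found early in growing neurons, was the 1 stabilising MAP that fell in PC3, from a mean of 229 ± 35.4 to 138 ± 7.77 CPM (log2 fold change -0.83 ± 0.16, adjusted p = 0.00225). In DU145 MAP1A had a log2 fold change of -0.51 (adjusted p = 0.107) and MAP1B one of 0.40 (adjusted p = 0.0816), and neither passed.

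MAP7D1, a relative of MAP7, rose in DU145 from a mean of 97.6 ± 18.9 to 168 ± 17.9 CPM (log2 fold change 0.79 ± 0.17, adjusted p = 0.00569). That call was lost without sensitive library 2 (0.58, adjusted p = 0.0600) and without resistant library 1 (0.61, adjusted p = 0.0510). Its PC3 value was -0.45 (adjusted p = 0.0573), and the lines differed by -1.24 ± 0.24 (adjusted p = 0.00251). MAP4, the main MAP of cells other than neurons, lay between 441 and 576 CPM in all 8 libraries with overlapping groups in both lines. Its log2 fold change was -0.10 ± 0.15 in DU145 and -0.01 ± 0.15 in PC3. MAP1S and TPPP, which promotes tubulin polymerisation, did not pass in either line, although TPPP did in PC3 without resistant library 1 (1.24, adjusted p = 0.0280).

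Of the 2 stathmins, STMN3 rose in both lines and STMN1 passed in neither. STMN3, a stathmin best known from neurons, lies on the minus strand of chromosome 20 (chr20:63639705-63657682). It stood at 2.12 and 2.07 CPM in the sensitive libraries and 4.53 and 4.09 CPM in the resistant libraries of DU145, a 2.07-fold rise (log2 fold change 1.05 ± 0.20, adjusted p = 0.00351). In PC3 it stood at 16.3 and 14.2 CPM in the sensitive libraries and 45.3 and 40.7 CPM in the resistant libraries, a 2.63-fold rise (log2 fold change 1.39 ± 0.18, adjusted p = 0.000237). No groups overlapped, both calls held without any one library, and a difference between the 2 changes was not shown (0.34 ± 0.27, adjusted p = 0.368). STMN1, the ubiquitous stathmin, was between 355 and 546 CPM throughout and did not pass in DU145 (-0.33 ± 0.17, adjusted p = 0.182) or in PC3 (-0.08 ± 0.17, adjusted p = 0.751). Per kilobase of exon, STMN1 was the higher of the pair in all groups, with 68.4 CPM per kb beside 14.2 for STMN3 in resistant PC3.

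**Figure D3:**
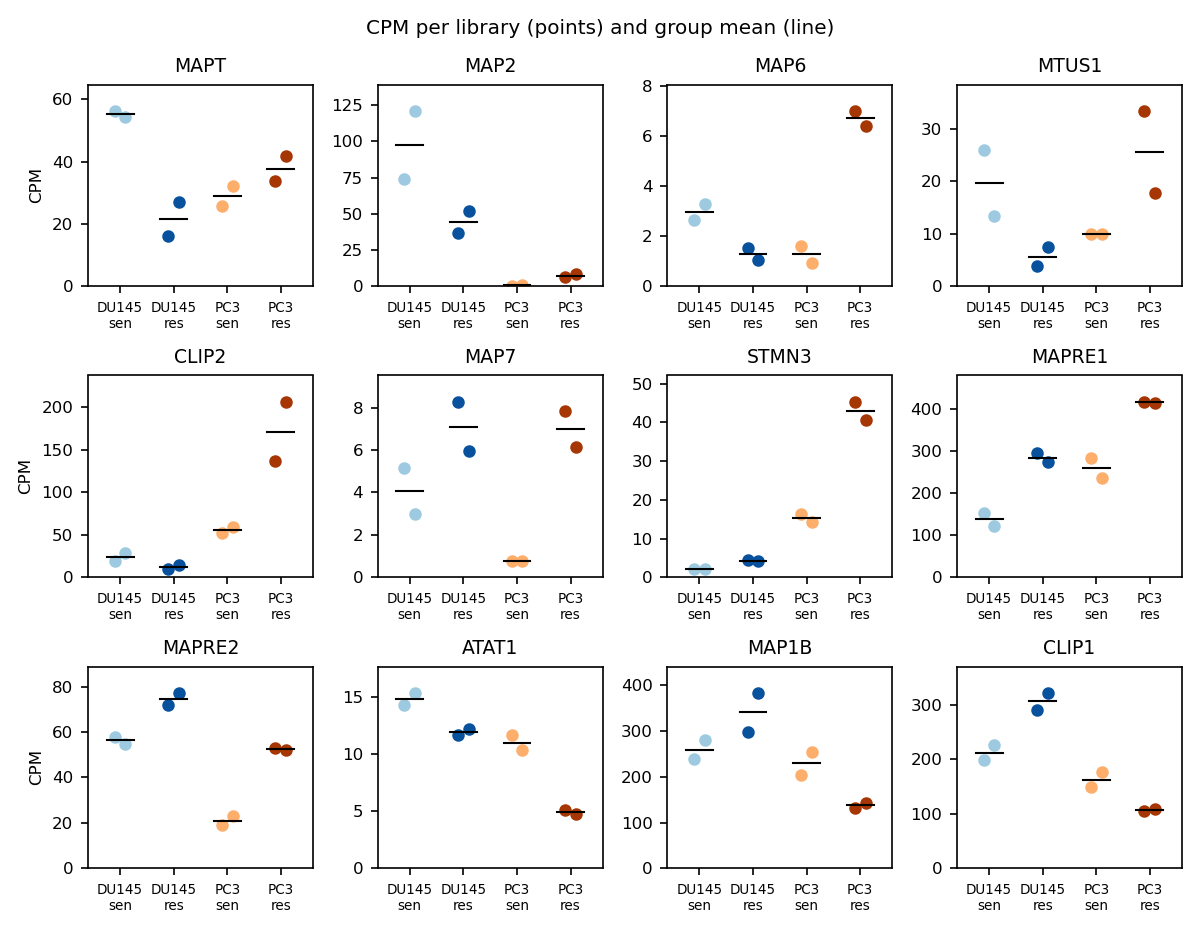
CPM of 12 genes in each library (points) and the mean of each group of 2 libraries (line), with a linear axis from 0 for each gene. MAPT, MAP2, MAP6, MTUS1 and CLIP2 are lower in resistant than in sensitive DU145, and STMN3, MAPRE1 and MAPRE2 are higher in the resistant libraries of both lines.

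The plus-end proteins included genes that rose in both lines and genes that went opposite ways. In DU145, 4 of 9 were higher, 1 was lower and 4 did not pass (median log2 fold change 0.30), while PC3 had 3 higher, 3 lower and 3 that did not pass (median -0.04). Over all tested genes, 12.4% were higher and 15.4% lower in DU145, and 18.6% and 17.0% in PC3. The change in PC3 was above that in DU145 for 2 and below it for 4, beside 18.5% and 15.9% of all tested genes.

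The EB proteins bind the growing tip and recruit other plus-end proteins. MAPRE1, which encodes EB1, stood at 153 and 123 CPM in the sensitive libraries and 294 and 273 CPM in the resistant libraries of DU145 (2.07-fold, log2 fold change 1.05 ± 0.17, adjusted p = 0.00108). In PC3 it stood at 284 and 236 CPM in the sensitive libraries and 416 and 414 CPM in the resistant libraries (log2 fold change 0.57 ± 0.16, adjusted p = 0.0201). Per kilobase of exon it was the most abundant of the 36 genes with a known exon length in resistant cells of both lines, with 111 CPM per kb in DU145 and 162 in PC3. That ranking depends on the length used, here all annotated exons joined, which can exceed the expressed transcript. The PC3 call was lost without sensitive library 2 (0.43, adjusted p = 0.194), resistant library 1 (0.58, adjusted p = 0.0661) or resistant library 2 (0.57, adjusted p = 0.0763).

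MAPRE2, which encodes EB2, was at 19.2 and 22.9 CPM in the sensitive libraries and 53.0 and 52.1 CPM in the resistant libraries of PC3 and rose 2.33-fold (log2 fold change 1.22 ± 0.14, adjusted p = 8.48e-05). In DU145 it was at 58.0 and 54.7 CPM in the sensitive libraries and 72.1 and 77.2 CPM in the resistant libraries (log2 fold change 0.41 ± 0.13, adjusted p = 0.0415). The resistant PC3 libraries came to just below the sensitive DU145 libraries. The DU145 call was lost in each of the 8 fits that left out 1 library (adjusted p from 0.0580 to 0.219), and the larger change in PC3 (0.81 ± 0.19, adjusted p = 0.00812) was not called without sensitive PC3 library 1 (0.70, adjusted p = 0.0617). MAPRE3, which encodes EB3, did not pass in DU145 (-0.28 ± 0.18, adjusted p = 0.292) or PC3 (-0.04 ± 0.18, adjusted p = 0.892).

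The 2 CLIP genes encode linker proteins that ride on the growing tip, and they moved in mirror image. CLIP2, for CLIP-115, was at 19.1 and 28.8 CPM in the sensitive libraries and 9.55 and 14.9 CPM in the resistant libraries of DU145 (log2 fold change -0.96 ± 0.25, adjusted p = 0.0167). In PC3 it was at 52.0 and 58.8 CPM in the sensitive libraries and 136 and 206 CPM in the resistant libraries, a 2.89-fold rise (log2 fold change 1.53 ± 0.25, adjusted p = 0.000889). The groups did not overlap and the changes differed by 2.50 ± 0.35 (adjusted p = 0.000424). The DU145 call was lost without sensitive library 2 (-0.67, adjusted p = 0.115) and without resistant library 1 (-0.73, adjusted p = 0.0949).

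CLIP1, for CLIP-170, was at 198 and 226 CPM in the sensitive libraries and 290.2 and 322 CPM in the resistant libraries of DU145 (log2 fold change 0.54 ± 0.13, adjusted p = 0.0122). In PC3 it was at 149 and 176 CPM in the sensitive libraries and 105 and 108 CPM in the resistant libraries (log2 fold change -0.71 ± 0.13, adjusted p = 0.00216). It therefore rose in the line where CLIP2 fell and fell in the line where CLIP2 rose, and its changes differed by -1.24 ± 0.19 (adjusted p = 0.000627). The DU145 call was lost without sensitive library 1 (0.48, adjusted p = 0.0750). Exons of CLIP1-AS1 overlap 470 bases, 2.53%, of CLIP1 exons on the opposite strand, and that gene had 29 and 24 counts in sensitive and 78 and 90 counts in resistant DU145.

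CKAP5, the polymerase chTOG that adds tubulin at the plus end, fell in PC3 from a mean of 383 ± 17.5 to 235 ± 14.9 CPM (log2 fold change -0.81 ± 0.14, adjusted p = 0.00126), a call that held without any one library. In DU145 its groups overlapped (0.14 ± 0.14, adjusted p = 0.476). The CLASP proteins rescue shrinking microtubules. CLASP2 rose in DU145 from a mean of 65.0 ± 1.85 to 100.1 ± 4.59 CPM (log2 fold change 0.63 ± 0.12, adjusted p = 0.00307), while CLASP1 fell in PC3 from a mean of 82.1 ± 5.53 to 66.8 ± 3.02 CPM (log2 fold change -0.40 ± 0.13, adjusted p = 0.0389), a call lost on leaving out any one of the 4 PC3 libraries (adjusted p from 0.0902 to 0.222). DCTN1, which encodes the large dynactin subunit p150, did not pass in DU145 (0.30 ± 0.15, adjusted p = 0.174) or PC3 (0.34 ± 0.15, adjusted p = 0.106).

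None of the 3 severing enzymes, all AAA ATPases, passed with a change of 2-fold or more, beside 14.9% of all tested genes in DU145 and 19.3% in PC3. KATNA1, the katanin catalytic subunit, rose in DU145 from 30.6 and 26.1 CPM in the sensitive libraries to 44.1 and 49.4 CPM in the resistant libraries (log2 fold change 0.72 ± 0.16, adjusted p = 0.00724), but not without sensitive library 2 (0.59, adjusted p = 0.0679). FIGN, for fidgetin, rose in PC3 from 4.66 and 7.29 CPM to 11.7 and 10.6 CPM (log2 fold change 0.80 ± 0.24, adjusted p = 0.0236), but not without sensitive library 1 (0.53, adjusted p = 0.216), resistant library 1 (0.74, adjusted p = 0.0913) or resistant library 2 (0.86, adjusted p = 0.0575), and it reached 1.13 without sensitive library 2 (adjusted p = 0.0188). In the other line, KATNA1 (0.17 ± 0.16, adjusted p = 0.445) and FIGN (-0.14 ± 0.23, adjusted p = 0.705) did not pass. SPAST, for spastin, passed in neither line.

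None of the 5 folding cofactors passed in DU145, beside 27.8% of all tested genes that did. Log2 fold changes there ran from -0.48 for TBCD to 0.34 for TBCC, and the smallest adjusted p was 0.121. Without resistant library 1 the value of TBCD was -0.87. In PC3, 2 fell and 3 did not pass, beside 17.0% of all tested genes that were lower. TBCD, which captures β-tubulin, had 109.9 and 96.2 CPM in the sensitive libraries and 68.7 and 71.9 CPM in the resistant libraries (log2 fold change -0.65 ± 0.22, adjusted p = 0.0368). TBCA, which also binds β-tubulin, had 125 and 115 CPM in the sensitive libraries and 97.9 and 92.4 CPM in the resistant libraries (log2 fold change -0.44 ± 0.14, adjusted p = 0.0358). Neither pair of groups overlapped, but both calls were lost on leaving out any one of the 4 PC3 libraries, with adjusted p up to 0.231 for TBCA and 0.191 for TBCD. TBCB and TBCE, which bind α-tubulin, and TBCC, which releases the finished dimer, did not pass in PC3.

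None of the 5 modifying enzymes passed in DU145, beside 27.8% of all tested genes. In PC3 1 rose and 3 fell, beside 18.6% and 17.0% of all tested genes. ATAT1, the acetyltransferase of α-tubulin, was at 11.6 and 10.3 CPM in the sensitive libraries and 5.11 and 4.77 CPM in the resistant libraries of PC3, a 2.38-fold fall that held without any one library (log2 fold change -1.25 ± 0.20, adjusted p = 0.000736). In DU145 it was at 14.2 and 15.3 CPM in the sensitive libraries and 11.7 and 12.2 CPM in the resistant libraries (log2 fold change -0.30 ± 0.19, adjusted p = 0.272). HDAC6, which removes the same acetyl group, was at 44.5 and 52.9 CPM in the sensitive libraries and 37.4 and 51.0 CPM in the resistant libraries of PC3 with overlapping groups (log2 fold change -0.24 ± 0.20, adjusted p = 0.381), and in DU145 its value was -0.50 ± 0.20, adjusted p = 0.0819, which passed without resistant library 2 (-0.70, adjusted p = 0.0428). RNA of ATAT1 was thus lower in resistant PC3, and for RNA of HDAC6 no change was detected there. These changes were not tested against each other, and neither protein nor tubulin acetylation was measured in these libraries.

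TTL, which puts tyrosine back on α-tubulin, fell in PC3 from a mean of 117 ± 2.06 to 83.7 ± 6.72 CPM (log2 fold change -0.58 ± 0.13, adjusted p = 0.00560), though not without resistant library 1 (-0.49, adjusted p = 0.0511). TTLL4, a glutamylase, fell from a mean of 48.9 ± 3.47 to 34.3 ± 3.89 CPM (log2 fold change -0.61 ± 0.15, adjusted p = 0.00822), though not without sensitive library 2 (-0.56, adjusted p = 0.0805) or resistant library 2 (-0.51, adjusted p = 0.0704). TTLL12, a TTL-like protein, rose from a mean of 54.5 ± 0.488 to 94.1 ± 16.3 CPM (log2 fold change 0.69 ± 0.20, adjusted p = 0.0224), though not without sensitive library 1 (0.71, adjusted p = 0.0905), sensitive library 2 (0.66, adjusted p = 0.114) or resistant library 1 (0.51, adjusted p = 0.149).

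The starting levels differed between the lines before resistance was compared. Between sensitive PC3 and sensitive DU145, 13 of the 37 genes were higher in PC3, 11 were lower and 13 did not pass. That makes 64.9% beside 57.8% of all tested genes (28.6% higher and 29.2% lower). In the separate fit of the 14585 more abundant genes, 23 of 36 passed, beside 65.4% of all genes in that fit. Of the 24 that passed in the main fit, 11 differed by 2-fold or more, DCLK1 among them, beside 39.2% of all tested genes. This comparison shares its libraries with those above. DCLK1, with no count in sensitive PC3, is among the lower genes and is counted below among those that held. MAP2 was 125-fold lower in sensitive PC3 (log2 difference -6.96 ± 0.36, adjusted p = 9.47e-08), and MAP7 (-2.33) and MAPRE2 (-1.36) were lower too. MAP1A was 8.60-fold higher in sensitive PC3 (log2 difference 3.10 ± 0.21, adjusted p = 6.18e-07) and STMN3 7.62-fold higher (log2 difference 2.93 ± 0.20, adjusted p = 7.9e-07). Of these calls, 8 of the 13 higher and 5 of the 11 lower held without any one library, those of MAP2, MAP7, MAPRE2, MAP1A and STMN3 among them.

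Per kilobase of exon, the most abundant genes in sensitive cells were STMN1 (78.2 CPM per kb in DU145 and 67.5 in PC3), MAPRE1 (53.8 and 102) and CKAP5 (41.4 and 44.9). Among the stabilising MAPs, MAP4 came first (35.5 and 30.6 CPM per kb), and the MAPs whose levels changed most with resistance were lower. MAP2 was at 8.23 CPM per kb in DU145 and 0.0633 in PC3, and MAP6 at 0.466 and 0.202.

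**Figure D4:**
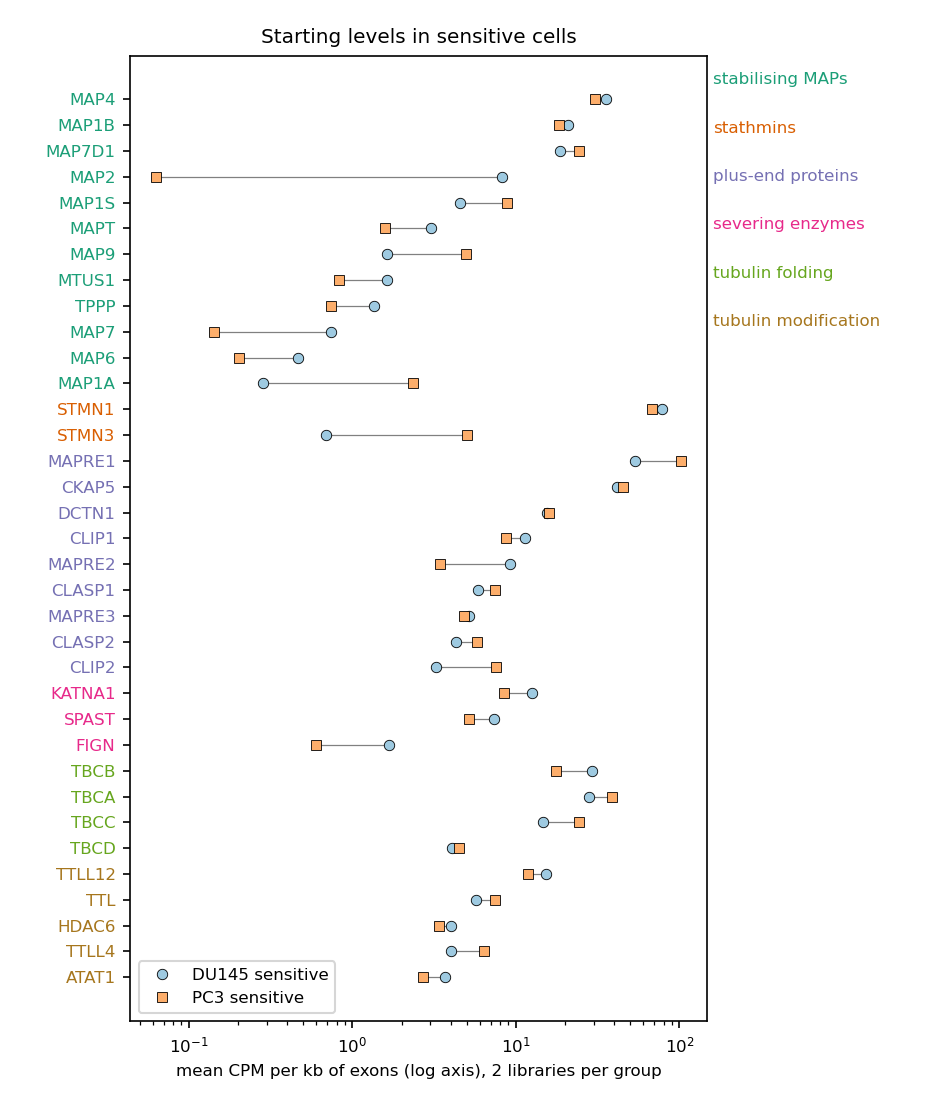
Mean CPM per kilobase of exon in sensitive DU145 (circles) and sensitive PC3 (squares), 2 libraries each, on a log axis, for 35 genes colored by role. TBCE, with no exon length, and DCLK1, with no count in sensitive PC3, are left out. The widest gaps are those of MAP2, MAP1A, STMN3 and MAP7.

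Sequence next to the transcription start was compared for the genes that changed in both lines, since these carry the opposed and the shared patterns. RefSeq promoter windows of GRCh38.p14 were found for 33 of the 37 genes, as 56 windows, and not for MAP6, MAPT, MTUS1 or TTLL4. The 250 bases before the start are shown for 4 genes, each 5′ to 3′ on the strand of its gene. MAP2 and CLIP2 both fell in DU145 and rose in PC3, and STMN3 and MAPRE1 rose in both lines. Capitals mark the GC box (GGGCGG or CCGCCC) and the CCAAT box (CCAAT or ATTGG), each searched on both strands with overlapping matches counted. The MAP2 window is the furthest upstream of its 3 starts.
MAP2, chr2:209579082-209579331, plus strand: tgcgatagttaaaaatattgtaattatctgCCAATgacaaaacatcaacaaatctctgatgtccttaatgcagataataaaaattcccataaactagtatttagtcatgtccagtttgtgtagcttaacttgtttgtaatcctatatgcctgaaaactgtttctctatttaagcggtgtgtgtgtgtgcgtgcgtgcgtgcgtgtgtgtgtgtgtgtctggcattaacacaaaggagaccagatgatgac
CLIP2, chr7:74289157-74289406, plus strand: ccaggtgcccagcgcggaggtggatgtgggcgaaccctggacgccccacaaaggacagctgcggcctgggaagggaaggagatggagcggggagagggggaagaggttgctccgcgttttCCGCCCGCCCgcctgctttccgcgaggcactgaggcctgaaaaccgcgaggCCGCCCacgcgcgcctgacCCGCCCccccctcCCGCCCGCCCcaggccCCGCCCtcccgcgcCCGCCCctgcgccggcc
STMN3, chr20:63652767-63653016, minus strand: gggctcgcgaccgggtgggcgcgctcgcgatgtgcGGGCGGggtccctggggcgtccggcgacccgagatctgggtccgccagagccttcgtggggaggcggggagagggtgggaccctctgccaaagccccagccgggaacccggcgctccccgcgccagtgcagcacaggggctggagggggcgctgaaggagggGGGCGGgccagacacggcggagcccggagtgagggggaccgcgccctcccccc
MAPRE1, chr20:32819704-32819953, plus strand: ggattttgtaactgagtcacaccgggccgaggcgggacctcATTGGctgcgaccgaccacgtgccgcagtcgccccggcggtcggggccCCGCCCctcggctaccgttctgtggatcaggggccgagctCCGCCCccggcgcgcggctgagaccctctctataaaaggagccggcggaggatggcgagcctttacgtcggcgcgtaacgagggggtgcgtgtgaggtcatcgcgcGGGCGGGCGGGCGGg

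The MAP2 window held no GC box, 1 CCAAT box and 6 CpG, and 37.6% of its bases were G or C. The CLIP2 window held 8 GC boxes and 28 CpG (75.6% G or C), the STMN3 window 2 GC boxes and 28 CpG (78.0%), and the MAPRE1 window 5 GC boxes, 1 CCAAT box and 35 CpG (71.2%). MAP2 and CLIP2, which moved in the same direction as each other in each line, thus had unlike windows, 1 poor and 1 rich in CpG. Of the 56 windows, 64.3% held a GC box, beside 42.6% of all 35116 windows, and 33.9% held a CCAAT box, beside 32%. The median number of CpG was 19.5, beside 11 for all windows. These matches describe the letters only.

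Genes beside those that changed in both lines were read as well, taking the 5 nearest tested protein-coding genes on each side. For reference, 12.4% of all tested genes were higher and 15.4% lower in DU145, and 18.6% and 17.0% in PC3. Most of the 10 neighbours of CLIP2 moved as CLIP2 did, with 8 lower and 1 higher in resistant DU145 (median log2 fold change -1.48) and 6 higher and 0 lower in resistant PC3 (median 1.10). Those of MAPRE2 were higher in 6 cases in DU145 and 4 in PC3, with 0 lower in either (medians 0.56 and 0.41), and those of STMN3 were higher in 5 and 2, with 0 lower (medians 0.49 and 0.25). Around MAP2, by contrast, 5 were lower and 0 higher in DU145 (median -0.72), but in PC3 2 were higher and 2 lower (median -0.22). Next to MAP6, 5 fell and 0 rose in DU145, while 5 rose and 2 fell in PC3. Next to MTUS1, 6 were lower and 0 higher in DU145, with 1 higher and 3 lower in PC3. CLIP1 had 1 higher neighbour in DU145 and 5 lower ones in PC3, and MAPRE1 had 2 higher in each line and 1 lower in PC3. The neighbours of MAP9 showed no common direction, with 2 that rose and 3 that fell in DU145 and 3 of each in PC3. Neighbours share a chromosome segment and are not independent, and its part in the change of each gene was not tested.

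The other genes of the same pathway were read from 6 lists of 109 genes, of which 97 were tested. Unlike those of the 37 genes, their single calls were not checked by leaving out libraries or by other settings. In DU145, 26 were higher, 14 were lower and 57 did not pass, which makes 41.2% beside the 27.8% of all tested genes. In PC3, 20 were higher, 16 were lower and 61 did not pass, or 37.1% beside 35.6%. The median log2 fold change was 0.19 in DU145 and 0.12 in PC3. The PC3 change was above the DU145 change for 19 of them and below it for 22, beside 18.5% and 15.9% of all tested genes. The 2 other stathmins, STMN2 and STMN4, did not pass the filter on low counts.

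Of 24 further lattice and minus-end binding proteins tested, 8 rose and 2 fell in DU145, beside 12.4% and 15.4% of all tested genes, and 4 rose and 7 fell in PC3, beside 18.6% and 17.0%. In DU145, GAS2L1, which links microtubules and actin, rose from a mean of 35.0 ± 1.40 to 96.2 ± 1.70 CPM (log2 fold change 1.47 ± 0.14, adjusted p = 4.31e-05), and EML6 rose from 2.29 ± 1.35 to 9.76 ± 3.47 CPM (2.09 ± 0.38, adjusted p = 0.00217). In PC3, MTUS2, a relative of MTUS1, was at 0 and 0.0631 CPM in the sensitive libraries and 1.56 and 2.57 CPM in the resistant libraries. Its 67 and 99 counts in resistant PC3 carried it past the filter on low counts, with 10 counts at most elsewhere, so no test is given. It is counted above among the genes that rose in PC3. DCLK2 rose in DU145 (log2 fold change 1.22 ± 0.25, adjusted p = 0.00444) and fell in PC3 (-1.05 ± 0.25, adjusted p = 0.008). By the test of the difference, 2 of this list had a higher change in PC3 than in DU145 and 7 a lower one. Over all tested genes these shares were 18.5% and 15.9%. MTUS2 is among the 2.

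Of 26 further plus-end proteins and regulators, 7 rose and 2 fell in DU145, while in PC3 4 rose and 4 fell. The share called was 34.6% in DU145 and 30.8% in PC3, beside 27.8% and 35.6% of all tested genes. SLAIN1, which binds EB proteins at the growing tip, fell in DU145 from a mean of 21.0 ± 0.762 to 8.34 ± 2.26 CPM (log2 fold change -1.31 ± 0.25, adjusted p = 0.00308) and rose in PC3 from 0.434 ± 0.123 to 12.8 ± 0.760 CPM (log2 fold change 4.76 ± 0.33, adjusted p = 2.55e-06). It thus moved in the same opposed directions as CLIP2. CLIP4 of the same list went the other way. It rose in DU145 (log2 fold change 0.56 ± 0.16, adjusted p = 0.0257) and fell in PC3 (-1.50 ± 0.17, adjusted p = 8.95e-05). By the test of the difference, 4 of this list had a higher change in PC3 than in DU145 and 5 a lower one. Over all tested genes these shares were 18.5% and 15.9%. NAV3, a neuron navigator protein of the plus end, rose in DU145 from 21.3 ± 0.969 to 96.8 ± 0.647 CPM (2.19 ± 0.35, adjusted p = 0.00111).

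Among the 5 further severing genes tested, 2 were lower and 0 higher in DU145, and 2 were higher and 0 lower in PC3. That makes 40% in each line, beside 27.8% and 35.6% of all tested genes. KATNAL2, a katanin-like protein, fell in DU145 from a mean of 5.06 ± 0.364 to 1.67 ± 0.201 CPM (log2 fold change -1.59 ± 0.27, adjusted p = 0.00167) and rose in PC3 from 5.81 ± 0.310 to 10.5 ± 2.41 CPM (log2 fold change 0.76 ± 0.25, adjusted p = 0.0371).

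Of 20 further folding factors, 10 rose and 2 fell in DU145, and 3 rose and 2 fell in PC3. The share called was 60% in DU145 and 25% in PC3, beside 27.8% and 35.6% of all tested genes. The risers in DU145 included 5 of the 8 subunits of the chaperonin CCT, which folds tubulin and actin, beside 12.4% of all tested genes. Among them were CCT2, from a mean of 318 ± 70.6 to 632 ± 43.0 CPM (log2 fold change 1.00 ± 0.18, adjusted p = 0.00207), and TCP1 (log2 fold change 0.95 ± 0.17, adjusted p = 0.00236). In PC3, CCT5 alone of the 8 passed (log2 fold change 0.94 ± 0.15, adjusted p = 0.000884). ARL2, a small GTPase that works with TBCD, fell in DU145 from a mean of 28.8 ± 1.26 to 6.95 ± 1.86 CPM (log2 fold change -2.05 ± 0.18, adjusted p = 2.61e-05) and rose in PC3 from 34.5 ± 1.35 to 83.0 ± 10.8 CPM (log2 fold change 1.17 ± 0.17, adjusted p = 0.000483).

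Of 22 further modifiers tested, 1 rose and 6 fell in DU145, while 7 rose and 3 fell in PC3. The share called was 31.8% in DU145 and 45.5% in PC3, beside 27.8% and 35.6% of all tested genes. TTLL1, a glutamylase subunit, fell in DU145 from a mean of 4.14 ± 1.26 to 1.04 ± 0.400 CPM (log2 fold change -1.98 ± 0.39, adjusted p = 0.00374) and rose in PC3 from 1.50 ± 0.0697 to 8.29 ± 3.35 CPM (log2 fold change 2.37 ± 0.38, adjusted p = 0.000845). VASH1, a vasohibin, which removes the tyrosine that TTL puts back, fell in DU145 (-1.32 ± 0.19, adjusted p = 0.000608) and rose in PC3 (1.27 ± 0.18, adjusted p = 0.000435). TGM2, a transglutaminase that can crosslink polyamines to tubulin among many proteins, fell in DU145 from a mean of 508 ± 9.27 to 36.2 ± 6.79 CPM (log2 fold change -3.79 ± 0.19, adjusted p = 8.11e-07).

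**Figure D5:**
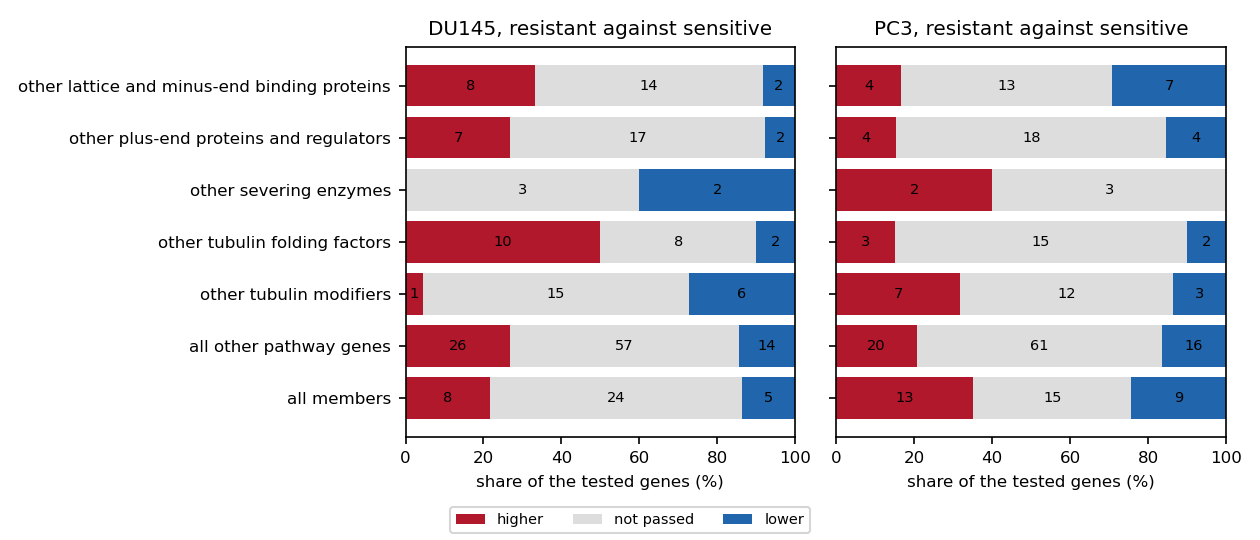
Share of tested genes (x axis, percent) that were higher, did not pass, or were lower in resistant cells, for the 37 genes, the 97 tested genes of the other lists together and each list, in DU145 (left) and PC3 (right), with counts of genes in the bars. In the list of other tubulin modifiers, 6 were lower in DU145 and 7 were higher in PC3, beside 15.4% and 18.6% of all tested genes.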

How the data were processed

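Bulk RNA-seq of sensitive and resistant DU145 and PC3 cells, 2 libraries per group, was analysed. The values are unnormalized read counts for each gene, deposited by the authors with a file for each library, and the submitters' processing notes name Bowtie and hg38. The counting tool, its annotation and strand setting, the aligner's version and the treatment of multiply mapped reads were not given in the sources used here, and no molecular identifiers are named there. Totals were 31685148 to 43045127 counts.

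Groups came from the sample labels. Genes were filtered with edgeR's filterByExpr by group, scaled by TMM (factors 0.951 to 1.04) and fitted with a mean per group in all 8 libraries (edgeR 4.0.16, R 4.3.3, 4 residual degrees of freedom). Contrasts were resistant minus sensitive in each line, the PC3 change minus the DU145 change, and sensitive PC3 minus sensitive DU145, each tested by the quasi-likelihood F test with Benjamini-Hochberg adjustment over 20238 genes at 0.05. Values after ± are standard errors (the absolute log2 fold change over the square root of F) for log2 values and SD (n = 2) for CPM. CPM were counts scaled to a library total of 1000000 without TMM. Exon length and coordinates came from GENCODE 44 (GRCh38, the same assembly as hg38), in which the ID of TBCE was not found, and promoter windows from RefSeq. Exon length was that of all annotated exons joined, not of the expressed transcript, and rankings per kilobase depend on it. The script was tested on simulated data.

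The genes and lists were chosen with earlier results of these data known. Values in each library are given for genes past the threshold with at least a 2-fold change in either line, or the most changed gene of a role group, and for CLIP1, TBCA and HDAC6, which were added beside their partners after the values were seen. Of each further list up to 3 genes per line were eligible, and the neighbouring genes were chosen after the values were seen. Replicates of a group differed beyond sampling noise (chi-square per degree of freedom 18.4 to 47.9). Alternatives were RLE scaling, DESeq2 1.42.0, no filter, 1 CPM in 4 libraries, a replicate block, each library left out, 0.01, and 1 line alone. Pseudogene rows of STMN1, MAPRE1 and TBCA held 0 to 11 counts each. Some genes of these lists are not reported here.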

Additional observations from a re-analysis of the deposited data

Results flagged for a closer look

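For 20 of the 37 genes the change with resistance differed between the lines by the test of the difference itself (edgeR's quasi-likelihood test, adjusted p under 0.05), beside 34.3% of all tested genes. Differences are PC3 change minus DU145 change in log2 units, from 2 libraries per group.

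A higher value in PC3 than in DU145 was seen for 11 genes. Among the stabilising MAPs these were MAP2 at 4.30, MAP6 at 3.47, MTUS1 at 3.07, MAP7 at 2.26, MAPT at 1.65 and MAP1A at 1.06. DCLK1 had a fitted difference of 7.68, which depends on the prior count because sensitive PC3 had no count, and the gene passed the low count filter through resistant PC3 alone. The plus-end genes were CLIP2 at 2.50 and MAPRE2 at 0.81, and the others were FIGN at 0.94 (adjusted p = 0.0498) and TTLL12 at 0.83 (adjusted p = 0.0449). The calls of MAP2, MAP6, MTUS1, MAP7, MAPT and CLIP2 held without any one library. DCLK1 is left out of this list because of the way it passed the filter. That of MAP1A was lost without resistant DU145 library 1 (0.89, adjusted p = 0.0572) or sensitive PC3 library 1 (0.91, adjusted p = 0.0794), and that of MAPRE2 without sensitive PC3 library 1 (0.70, adjusted p = 0.0617). That of FIGN was lost in 6 of the 8 fits, all but those without resistant DU145 library 1 or sensitive PC3 library 2 (adjusted p up to 0.207). That of TTLL12 was lost in 5, without sensitive DU145 library 1, resistant DU145 library 2, either sensitive PC3 library or resistant PC3 library 1 (adjusted p up to 0.179).

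A lower value in PC3 than in DU145 was seen for 9 genes. These were CLIP1 at -1.24, MAP7D1 at -1.24, MAP1B at -1.23, CKAP5 at -0.95, ATAT1 at -0.95, TTL at -0.81, CLASP1 at -0.69, CLASP2 at -0.67 and TBCA at -0.64. The calls of CLIP1, MAP7D1, MAP1B, CKAP5 and TTL held without any one library. CLASP2 was lost without either sensitive PC3 library (adjusted p = 0.0552 and 0.0554). ATAT1 was lost without sensitive or resistant DU145 library 1, sensitive PC3 library 1 or resistant PC3 library 2 (adjusted p up to 0.101), and CLASP1 without sensitive or resistant DU145 library 2, sensitive PC3 library 2 or resistant PC3 library 1 (up to 0.0806). TBCA was lost in 6 of the 8 fits, all but those without sensitive DU145 library 1 or resistant DU145 library 2 (up to 0.144).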

How the results depend on the processing

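Resistance calls rest on 2 libraries per group, a common biological coefficient of variation of 17.1% and 4 residual degrees of freedom, so small changes could not be resolved and a gene that did not pass may still differ. With each library left out in turn, the lone library of its group was assumed to vary like the other groups. Genes higher then numbered 5 to 8 in DU145, 8 to 13 in PC3, 7 to 10 for the difference between the lines and 8 to 13 between the sensitive lines, and genes lower 2 to 5, 5 to 10, 6 to 9 and 6 to 12. The lowest counts came without sensitive DU145 library 2 for DU145 (5 higher, 2 lower), without either sensitive PC3 library for the higher genes of PC3 (8 each), and without sensitive PC3 library 2 or either resistant PC3 library for its lower genes (5 each). The calls that held in all 8 fits were 4 of 8 higher and 2 of 5 lower in DU145, 7 of 13 and 4 of 9 in PC3, 7 of 11 and 5 of 9 for the difference, and 8 of 13 and 5 of 11 between the sensitive lines. DCLK1 is counted as held in PC3, for the difference and between the sensitive lines. It passed the filter on low counts through resistant PC3 alone, so it says nothing on how firm the calls are. No called gene reversed. Among genes that did not pass, the direction turned in some fits, and log2 values ran over these ranges: in DU145 DCLK1 -1.16 to 0.11, TPPP -0.75 to 0.0277, FIGN -0.32 to 0.0480, TBCB -0.20 to 0.17 and TTLL12 -0.44 to 0.12; in PC3 MAP4 -0.0871 to 0.0695, STMN1 -0.20 to 0.0341, MAPRE3 -0.18 to 0.0894 and TBCB -0.25 to 0.0473; for the difference MAP4 -0.00130 to 0.17, DCTN1 -0.13 to 0.22, TBCB -0.27 to 0.10, TBCD -0.49 to 0.22 and TBCE -0.0698 to 0.20; between the sensitive lines MAP1B -0.25 to 0.0305, STMN1 -0.34 to 0.0701, MAPRE3 -0.12 to 0.0444, DCTN1 -0.0538 to 0.28 and TBCD -0.0234 to 0.45.

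At an adjusted p under 0.01 the lower genes fell to 3 in DU145, the higher genes to 7 in PC3, and the lower genes of the difference to 5, while over all genes 1284 were higher and 1842 lower in DU145, 2385 and 1976 in PC3, and 2339 and 1734 for the difference. Over all genes, 1 library left out took the genes higher in DU145 to 1380 without sensitive library 2 and 1590 without resistant library 1, and those of PC3 to 2349 higher and 2004 lower without sensitive library 1, 2404 and 1983 without sensitive library 2, and 2156 lower without resistant library 2. MAP4 in PC3 turned to 0.026 with no filter, 0.039 with a filter of 1 CPM in 4 libraries and 0.0009 with PC3 fitted alone, and that CPM filter turned MAPRE3 to 0.0074 and CLASP2 to 0.0036 in PC3. With no filter, 8 calls were lost and 8 gained; the losses were MAPRE2 in DU145 (adjusted p = 0.123), MAP1A (0.0505), CLASP1 (0.155) and TBCA (0.0869) in PC3, CLASP2, TBCA and ATAT1 for the difference, and CLASP1 between the sensitive lines. The filter of 1 CPM in 4 libraries lost CLASP1 in PC3 (adjusted p = 0.0553) and MAP7D1 between the sensitive lines (0.0537) and gained CLIP1 there. RLE scaling lost FIGN and TTLL12 for the difference. DESeq2 lost MAPRE2 in DU145, CLASP1 and TBCA in PC3 and MAP7D1 between the sensitive lines, and gained MTUS1 there. The DU145 libraries fitted alone lost MAP6 (adjusted p = 0.0501) and MAPRE2 (adjusted p = 0.0721). With the replicate number as a block, 10 genes were higher and 7 lower in DU145, 14 and 11 in PC3, 12 and 11 for the difference and 13 and 14 between the sensitive lines, with 13 calls gained and none lost. The labels do not say that equal numbers pair libraries, and deviations of same-numbered libraries correlated at 0.323 in DU145 and 0.0861 in PC3.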
